A study of Mus musculus with 12 samples.

Results

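Igf2, H19, Igf2r, Airn and Mest are imprinted genes, expressed mainly from the copy inherited from 1 parent, and they were examined here in the livers of mice conceived by in vitro fertilization (IVF) or by natural mating, with and without the transcription factor ATF7. The 5 genes were chosen by name, and each was read through every probe set that the platform annotation assigns to that gene alone. This gave 1 probe set each for Igf2, Igf2r, Airn and Mest, that is 4 of the 34760 probe sets measured, and H19 was not analysed here because no probe set named it alone. All 4 lay above the 25th percentile of mean signal over the 12 arrays, so a filter on dim probe sets would keep every one.

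Total liver RNA of 12 males was hybridised to the Mouse Gene 1.0 ST array of Affymetrix, with 3 mice in each of 4 groups and 1 array for every mouse. The groups were Atf7-/- mice from IVF, Atf7-/- mice from natural mating, WT mice from IVF and WT mice from natural mating. The labels give an age of 4 weeks for every mouse, whereas the methods of the article give 3 weeks. Mutants lacked ATF7 in the whole body and not in the liver alone, and both genotypes had the C57BL6/JJmsSlc background. Parents had the genotype of their offspring, so the genotype of a mouse and that of its parents cannot be told apart. IVF mice came from superovulated egg donors and were carried, from the 2-cell stage, by pseudopregnant recipients of the ICR strain, so fertilization in vitro, embryo culture, superovulation and the recipient cannot be told apart. Each liver of a group came from a different mother or recipient, which makes the replicates separate animals.

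All values are log2 expression after robust multi-array average (RMA) normalization, so a difference of 1 is a doubling of signal. In 1 limma fit of the 4 groups, a probe set was called changed where its p, adjusted by Benjamini and Hochberg over all probe sets, did not exceed 0.05 and its log2 fold change was 0.6 or more in either direction. Array medians ran from 6.216 to 6.339, and correlations were 0.980 to 0.990 within groups and 0.971 to 0.988 between them. The first Atf7 probe set averaged 5.52 ± 0.17 in Atf7-/- IVF, 5.96 ± 0.14 in Atf7-/- natural mating, 8.04 ± 0.43 in WT IVF and 8.78 ± 0.18 in WT natural mating livers (SD, n = 3 each), so every mutant lay below every WT array, and in WT livers it was also lower after IVF by limma (log2 fold change -0.74, adjusted p = 0.0384). A second Atf7 probe set averaged 8.38 in Atf7-/- IVF, 8.68 in Atf7-/- natural mating, 8.76 in WT IVF and 9.02 in WT natural mating livers, and was called in no comparison. The article reports that Atf7 mRNA did not differ with IVF and that ATF7 protein was comparable by western blot. Of the markers of hepatocytes, the main cells of the liver, 7 of 8 were measured and 0 were called in any comparison.

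As background, imprinted growth genes are marked by DNA methylation laid down in the egg or the sperm, which must survive fertilization and early cleavage, the time during which IVF embryos are in culture. Igf2 encodes a fetal growth factor expressed from the paternal copy, and H19 is a maternally expressed noncoding RNA of the same cluster. Igf2r encodes the receptor that takes IGF2 to the lysosome and that also sorts lysosomal enzymes. In mice Igf2r is expressed from the maternal copy, and Airn is the paternally expressed noncoding RNA that runs antisense through Igf2r. Mest is paternally expressed, encodes a protein of the alpha/beta hydrolase fold and is high in fetal tissues. Mouse liver lowers several such fetal growth genes in the weeks after birth.

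The places of these genes help to read their probe sets, and sequences from RefSeq (GRCm38.p6) are given for the overlapping pair, for the starts of Mest and for the miRNAs inside members. In the promoter table each window runs from 250 bases before a transcription start to 50 after it, and it held 9 windows of the 4 measured members, namely 4 of Igf2, 3 of Mest and 1 each of Igf2r and Airn. The Igf2r and Airn windows are shown because these genes overlap on opposite strands, with the Airn start 28395 bases inside Igf2r. Capitals mark CG dinucleotides, the sites of DNA methylation, and each sequence reads 5′ to 3′ on the gene's own strand.
Igf2r, chr17:12769657-12769956, minus strand: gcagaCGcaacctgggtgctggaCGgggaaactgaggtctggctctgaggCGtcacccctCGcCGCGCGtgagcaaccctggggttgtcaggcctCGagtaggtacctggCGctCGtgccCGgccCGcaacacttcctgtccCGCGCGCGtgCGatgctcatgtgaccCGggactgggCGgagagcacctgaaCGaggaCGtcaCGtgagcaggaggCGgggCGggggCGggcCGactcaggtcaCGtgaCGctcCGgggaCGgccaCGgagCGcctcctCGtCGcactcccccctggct
Airn, chr17:12741061-12741360, plus strand: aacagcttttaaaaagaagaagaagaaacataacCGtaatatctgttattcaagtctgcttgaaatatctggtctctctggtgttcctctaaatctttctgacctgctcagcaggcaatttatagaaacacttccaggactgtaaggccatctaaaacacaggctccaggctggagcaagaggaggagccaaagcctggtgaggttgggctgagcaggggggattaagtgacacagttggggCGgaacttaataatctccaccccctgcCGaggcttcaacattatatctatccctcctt
The Igf2r window held 34 CG, a count reached by 7.73% of all 32851 windows, against a median of 7. The Airn window held 3 CG, and 76.7% of all windows held at least as many.

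Mest has an upstream start and, up to 4547 bases further on, a pair of downstream starts whose windows overlap almost wholly. Both kinds are shown because the deposited values do not say which start the Mest probe set reads.
Mest upstream, chr6:30733256-30733555, plus strand: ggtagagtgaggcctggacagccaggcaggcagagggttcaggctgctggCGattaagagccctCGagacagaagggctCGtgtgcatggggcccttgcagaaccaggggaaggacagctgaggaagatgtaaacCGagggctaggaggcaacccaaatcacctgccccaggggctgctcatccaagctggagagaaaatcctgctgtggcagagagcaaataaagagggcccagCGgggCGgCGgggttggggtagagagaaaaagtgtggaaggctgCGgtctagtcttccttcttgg
Mest downstream, chr6:30737803-30738102, plus strand: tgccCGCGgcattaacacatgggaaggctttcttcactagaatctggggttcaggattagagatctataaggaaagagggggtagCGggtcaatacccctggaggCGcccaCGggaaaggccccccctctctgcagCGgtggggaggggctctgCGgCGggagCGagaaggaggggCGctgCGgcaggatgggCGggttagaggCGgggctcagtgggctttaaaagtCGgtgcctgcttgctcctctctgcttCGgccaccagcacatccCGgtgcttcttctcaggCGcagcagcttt
The upstream window held 8 CG and the downstream windows 17 each. The 4 Igf2 windows, on chromosome 7, held 2, 14, 24 and 7 CG and span starts that lie up to 9320 bases apart. ATF7 belongs to the family of factors that bind the cAMP response element. The full element TGACGTCA, searched on both strands, was in 0 of the 9 windows, and 1.79% of all windows held it. Its 5-base part TGACG, which the full element contains and which was also searched on both strands, occurred 3 times in the Igf2r window and once in each of 2 Igf2 windows, and 20.8% of all windows held it at least once.

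The 2 miRNA genes inside members lie on the host's strand, Mir335 in Mest and Mir483 in Igf2, and both have a probe set. Their mature forms are shown with the seed, bases 2 to 8, in capitals.
miR-335-5p, chr6:30741314-30741336: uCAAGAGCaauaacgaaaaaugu
miR-335-3p, chr6:30741354-30741375: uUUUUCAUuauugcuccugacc
miR-483-3p, chr7:142654932-142654952: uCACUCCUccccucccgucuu
miR-483-5p, chr7:142654968-142654989: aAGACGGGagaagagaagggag
The 4 seeds differ from each other, and 0 other mature miRNAs of the table shared any of them.

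Igf2, the ligand, was higher after IVF in both genotypes. Its log2 values were 7.45, 7.32 and 6.96 in Atf7-/- IVF livers and 6.59, 6.58 and 6.53 in Atf7-/- natural mating livers. They were 7.17, 7.20 and 6.85 in WT IVF livers and 6.59, 6.60 and 6.27 in WT natural mating livers. Every IVF array was above every natural mating array, and in each group the mouse with replicate number 3 was the lowest. In Atf7-/- mice the rise was 0.68 on the log2 scale (SE 0.14, adjusted p = 0.0109 by limma), a fold of 1.60 with a 95% interval of 1.28 to 1.99. In WT mice the difference was 0.59 (SE 0.14, adjusted p = 0.0314), a fold of 1.50 with an interval of 1.21 to 1.88, which passed the adjusted p but lay just under the fold threshold. The IVF effect in Atf7-/- minus that in WT was 0.088 (95% interval -0.36 to 0.54, adjusted p = 0.852), so a difference between the genotypes was not shown, and the interval leaves room for one of either sign. Some lymphocyte markers differed in the same IVF comparisons. With IVF in Atf7-/- mice 3 of 6 were called higher, Cd3g, Ms4a1 and Ptprc, beside 6.78% of all probe sets in either direction. The median was 0.56, with sums of 675 to 698 in Atf7-/- IVF against 489 to 523 in Atf7-/- natural mating livers. These sums weigh the brightest marker, Ptprc, most (7.97 against 7.17), and Ptprc is expressed by other leukocytes too. Cd3e, not called, went the other way (6.64 against 6.94). With IVF in WT mice 1 of 6 was called higher, Ms4a1, beside 4.52% of all probe sets. The WT sums overlapped, at 606 to 665 in WT IVF against 522 to 743 in WT natural mating livers. Ptprc (7.79 against 8.01) and Cd3e (6.55 against 6.76) averaged lower in WT IVF, and the other markers higher. The part of lymphocytes or other leukocytes in the Igf2 values was not tested.

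Leaving out single mice showed how far these Igf2 values rest on each array. The call in Atf7-/- mice ended without Atf7-/- IVF replicate 1, where the log2 fold change was 0.57 with an adjusted p of 0.0348, and held without each of the other 5 arrays. In WT mice the adjusted p was 0.0361 without WT IVF replicate 3, where the change of 0.70 was called, and was 0.0517 to 0.102 without any other of the 6 arrays. Fitting only the groups compared gave 0.0742 in WT mice. Loss of ATF7 gave an Igf2 difference of 0.17 in IVF livers (95% interval -0.15 to 0.49, adjusted p = 0.901) and of 0.081 in natural mating livers (-0.24 to 0.40, adjusted p = 0.79).

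**Figure D1:**
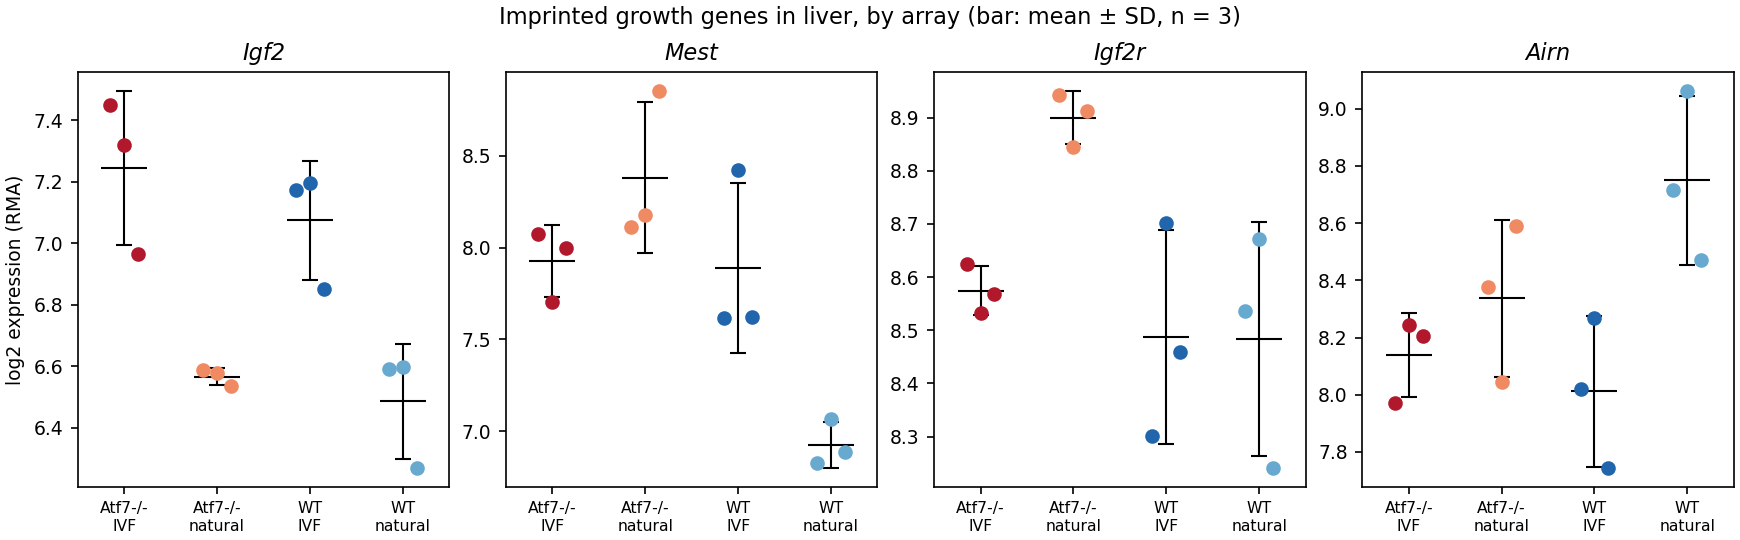
Log2 expression (RMA) of Igf2, Mest, Igf2r and Airn in each of the 12 arrays, by group, with the group mean and SD (n = 3) in black; each gene has its own vertical scale, which does not start at 0. Both IVF groups lie above both natural mating groups for Igf2, whereas for Mest the WT natural mating group, at 6.83 to 7.06, lies below all other arrays.

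Mest had the largest differences of the 4 members with IVF in WT, with ATF7 loss in natural mating and in the interaction, and its IVF effect differed between genotypes. The log2 values were 8.07, 7.70 and 8.001 in Atf7-/- IVF livers and 8.11, 8.18 and 8.85 in Atf7-/- natural mating livers. They were 7.62, 8.42 and 7.62 in WT IVF livers and 6.83, 7.06 and 6.88 in WT natural mating livers. The 3 WT natural mating arrays were the lowest of the 12, and the remaining groups were spread over 7.62 to 8.85. Within them, Atf7-/- natural mating replicate 3 and WT IVF replicate 2 stood above the other arrays of their groups.

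In naturally conceived mice the loss of ATF7 went with a Mest level higher by 1.46 on the log2 scale (SE 0.24, adjusted p = 0.00259 by limma), a fold of 2.74 with a 95% interval of 1.90 to 3.95. Without any 1 of the 6 arrays this change stayed between 1.22 and 1.59 with adjusted p of 0.00576 to 0.0107. In IVF mice the same comparison gave 0.037 (95% interval -0.49 to 0.57, adjusted p = 0.993), with overlapping arrays. IVF raised Mest in WT mice by 0.96 (SE 0.24, adjusted p = 0.033), a fold of 1.95 with an interval of 1.35 to 2.81. That call ended without any of the 6 arrays except WT IVF replicate 1, with adjusted p of 0.0517 to 0.0917 and a smallest change of 0.70 without WT IVF replicate 2. It also ended when only the groups compared were fitted (adjusted p = 0.0674). The article reports higher Mest in WT livers after IVF by array and by quantitative RT-PCR, and the RT-PCR data were not examined here.

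In Atf7-/- mice Mest differed by -0.46 between IVF and natural mating (SE 0.24, 95% interval -0.98 to 0.073, adjusted p = 0.269), with every IVF array below every natural mating array. The IVF effect in Atf7-/- minus that in WT was -1.42 (SE 0.34, adjusted p = 0.0307). This interaction lost its call without Atf7-/- IVF replicate 2 or 3, Atf7-/- natural mating replicate 3 or WT natural mating replicate 1, with adjusted p of 0.0562 to 0.0625 and the change between -1.55 and -1.15 in all 12 repeats. The WT natural mating arrays enter both the IVF comparison in WT and the ATF7 comparison in natural mating, so these changes of Mest are not independent of each other.

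Markers of hepatic stellate cells and fibroblasts, the collagen-producing cells of the liver, were also lowest in WT natural mating livers by their sum. The summed linear signal of the 8 markers, all measured, ran from 7108 to 7531 in Atf7-/- IVF, 5776 to 6419 in Atf7-/- natural mating, 6214 to 7625 in WT IVF and 4161 to 5595 in WT natural mating livers. The WT natural mating arrays thus had the lowest sums as well as the lowest Mest, while WT IVF replicate 2 had the highest sum (7625) and the second highest Mest (8.42). Between Atf7-/- groups the order by the sum was opposite, with higher sums and lower mean Mest in IVF than in natural mating livers. The linear sum weighs the brightest marker, Dcn, most, which averaged 12.03 in Atf7-/- IVF and 11.63 in Atf7-/- natural mating livers. The mean log2 value of the 8 markers overlapped, at 8.893 to 8.934 in Atf7-/- IVF and 8.691 to 9 in Atf7-/- natural mating livers. Lrat, Reln, Dcn and Col3a1 averaged higher in Atf7-/- IVF, and Pdgfrb, Ngfr, Col1a1 and Des lower. With loss of ATF7 in natural mating, 2 of 8 markers were called higher, the growth factor receptor genes Pdgfrb (0.89, adjusted p = 0.00115) and Ngfr (0.70, adjusted p = 0.00206), and the median change was 0.38, against -0.019 over all probe sets. With IVF in WT, 1 of 8 was called higher, Reln, which encodes an extracellular matrix glycoprotein (0.79, adjusted p = 0.0183), and the median was 0.41, against -0.036. In the interaction Pdgfrb and Ngfr were called lower. Of all probe sets, 7.5% were called in either direction with ATF7 loss in natural mating, 4.52% with IVF in WT and 6.18% in the interaction. The lowest value of any of these markers on any array was 6.65, of Des, and the part of stellate cells in the Mest differences was not tested. In bulk liver, fewer cells of a type and less RNA per cell cannot be told apart.

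Markers of other liver cells were called in these comparisons too, beside the same 7.5%, 4.52% and 6.18% of all probe sets. The summed signal of 6 markers of sinusoidal endothelial cells, which line the liver's capillaries, was again lowest where Mest was lowest. It ran from 4692 to 5382 in Atf7-/- IVF and 5039 to 6467 in Atf7-/- natural mating livers. In WT livers it ran from 4504 to 5599 after IVF and 3636 to 4301 after natural mating. The sum weighs the brightest marker, Clec4g, most. The mean log2 value of the 6 overlapped between WT IVF (9.225 to 9.547) and WT natural mating livers (8.998 to 9.245). It was 9.343 or more in both Atf7-/- groups. Fcgr2b averaged lower with IVF in WT (9.54 against 9.72), and the other markers higher. With ATF7 loss in natural mating Pecam1 averaged lower (7.70 against 7.76), and the other markers higher. Of these 6, 1 was called in each Mest comparison, the lectin gene Clec4g by its brightest probe set, higher with ATF7 loss in natural mating (0.9998, adjusted p = 0.00283) and with IVF in WT (0.75, adjusted p = 0.0225) and lower in the interaction (-1.10, adjusted p = 0.019). Of 6 markers of Kupffer cells, the resident macrophages, 3 were called lower and 1 higher with ATF7 loss in natural mating. The sums of the 6 were 4075 to 4784 in Atf7-/- natural mating and 4563 to 6689 in WT natural mating livers. With IVF in WT 1 of the 6, Cd5l, was called lower. In the interaction Cd5l was called higher and Vsig4 lower. Of 4 measured cholangiocyte markers 1, Krt19, was called with ATF7 loss in natural mating (0.60, adjusted p = 0.00123), with sums of 355 to 413 in Atf7-/- natural mating and 309 to 330 in WT natural mating livers. Of the 6 lymphocyte markers 1, Ptprc, was called lower with ATF7 loss in natural mating and higher in the interaction. The part of these cells in the members' values was not tested.

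**Figure D2:**
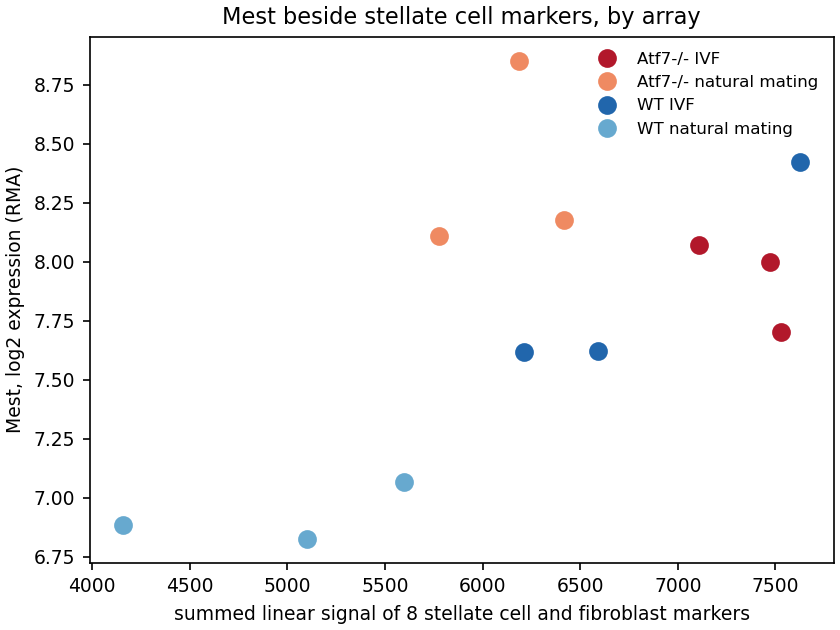
Mest log2 expression (RMA, vertical) against the summed linear signal of 8 stellate cell and fibroblast markers (horizontal), 1 point per array, coloured by group. WT natural mating arrays lie at the lower left, with sums of 4161 to 5595, and Atf7-/- natural mating arrays lie above Atf7-/- IVF arrays in Mest although their sums, 5776 to 6419, are lower than the 7108 to 7531 of Atf7-/- IVF. The sum weighs the brightest marker, Dcn, most.

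Igf2r, the receptor that removes IGF2, was highest in naturally conceived Atf7-/- mice, but was called in no comparison. Its log2 values were 8.62, 8.53 and 8.57 in Atf7-/- IVF livers and 8.94, 8.84 and 8.91 in Atf7-/- natural mating livers. They were 8.30, 8.70 and 8.46 in WT IVF livers and 8.54, 8.67 and 8.24 in WT natural mating livers. The Atf7-/- natural mating arrays lay above all others, and the remaining groups overlapped. The spread also differed between genotypes, with an SD of 0.046 in Atf7-/- IVF and 0.050 in Atf7-/- natural mating livers, and of 0.20 in WT IVF and 0.22 in WT natural mating livers.

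Loss of ATF7 in natural mating gave an Igf2r difference of 0.42 (SE 0.13, 95% interval 0.14 to 0.69, adjusted p = 0.0507 by limma), just outside the threshold, and leaving out single arrays gave adjusted p of 0.0374 without WT natural mating replicate 2 and up to 0.138 otherwise. The adjusted p was 0.0394 with median centring, 0.035 without dim probe sets and 0.0443 with an intensity trend and robust variances, and the change stayed under the fold threshold in each. IVF in Atf7-/- mice gave -0.33 (SE 0.13, adjusted p = 0.124), with every IVF array below every natural mating array. IVF in WT mice gave 0.0035 (95% interval -0.27 to 0.28, adjusted p = 0.991), whose sign turned with further quantile normalization and with array weights. Loss of ATF7 in IVF mice gave 0.088 (95% interval -0.19 to 0.36, adjusted p = 0.944), and the interaction was -0.33 (-0.72 to 0.063, adjusted p = 0.315).

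Airn, the antisense RNA over Igf2r, was lower after IVF in WT mice. Its log2 values were 7.97, 8.24 and 8.21 in Atf7-/- IVF livers and 8.38, 8.04 and 8.59 in Atf7-/- natural mating livers. They were 8.02, 8.27 and 7.74 in WT IVF livers and 8.72, 9.06 and 8.47 in WT natural mating livers. All WT IVF arrays were below all WT natural mating arrays, while the Atf7-/- groups overlapped each other. The change with IVF in WT was -0.74 (SE 0.19, adjusted p = 0.0361 by limma), which is 1.67-fold lower, with a 95% interval of -1.15 to -0.32 on the log2 scale. The call ended without WT IVF replicate 1 or 3 or WT natural mating replicate 1 or 2, with adjusted p of 0.0747 to 0.121, and the change lay between -0.88 and -0.58 over all 6 repeats. It also ended when only the groups compared were fitted (adjusted p = 0.0863) and with median centring (-0.67, adjusted p = 0.0548).

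In Atf7-/- mice the IVF difference of Airn was -0.20 (95% interval -0.61 to 0.22, adjusted p = 0.588), and the interaction was 0.54 (-0.045 to 1.13, adjusted p = 0.266), so a difference between genotypes was not shown. Loss of ATF7 gave 0.13 in IVF mice (adjusted p = 0.946) and -0.41 in natural mating mice (adjusted p = 0.19). Igf2r and Airn overlap on the genome, and the strand that each probe set reads is not given in the sources used here. The WT comparison, in which Airn was called, gave almost no difference for Igf2r.

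**Figure D3:**
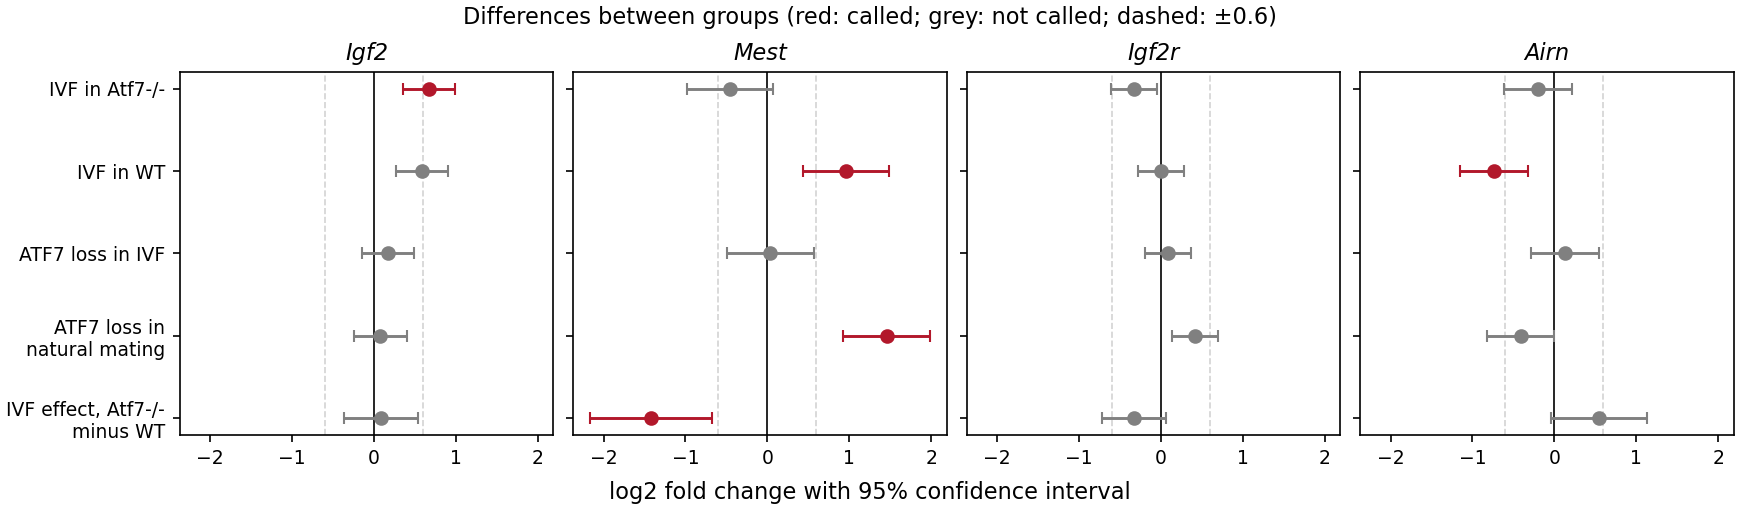
Log2 fold change with its 95% confidence interval for Igf2, Mest, Igf2r and Airn in 5 comparisons, red where called and grey where not, with dashed lines at the fold threshold of 0.6 in either direction. Mest is called in 3 comparisons, with the interaction at -1.42 opposite in sign to 0.96 for IVF in WT and 1.46 for ATF7 loss in natural mating, and Igf2 lies to the right of 0 for IVF in both genotypes.

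Counted over the members, IVF in Atf7-/- mice called 1 of 4, Igf2, against 6.78% of all probe sets, and the same 1 of 4 at the adjusted p alone, against 12.9%. IVF in WT mice called 2 of 4, Mest higher and Airn lower, against 4.52%, and 3 of 4 passed the adjusted p alone, against 8.62%. Loss of ATF7 called 0 of 4 in IVF livers, where 0.00575% of all probe sets, that is 2, were called by either rule. In natural mating livers it called 1 of 4, Mest, against 7.5%, and 1 of 4 at the adjusted p alone, against 13.7%. The interaction called 1 of 4, Mest, against 6.18%, and 1 of 4 at the adjusted p alone, against 7.25%. Of all calls, 63% were in the higher direction for IVF in WT, and centring each array on its median made this 75.5%. For the interaction the share was 44%, and 30.4% after centring.

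The miRNA genes inside members gave no call. Mir335, inside Mest, averaged 5.17 ± 0.062 in Atf7-/- IVF, 5.19 ± 0.15 in Atf7-/- natural mating, 5.34 ± 0.033 in WT IVF and 5.28 ± 0.17 in WT natural mating livers (SD, n = 3 each). With loss of ATF7 in natural mating, where Mest rose, Mir335 gave -0.089 (adjusted p = 0.667 by limma). The signal of Mir335 lay close to the 25th percentile over all probe sets, 4.968, so its lack of change says little. Mir483, inside Igf2, averaged 7.11 ± 0.19 in Atf7-/- IVF, 6.93 ± 0.14 in Atf7-/- natural mating, 7.14 ± 0.11 in WT IVF and 7.31 ± 0.073 in WT natural mating livers. IVF gave 0.17 for Mir483 in Atf7-/- mice (adjusted p = 0.391) and -0.17 in WT mice (adjusted p = 0.409), and ATF7 loss in natural mating gave -0.37 (adjusted p = 0.0547). These probe sets do not tell a mature miRNA from its precursor or host.

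The neighbours of the members on the chromosome were mostly not called. Of 9 genes beside Igf2 and H19, 1 was called, Mrpl23, a mitochondrial ribosomal protein gene beside H19. Its brightest probe set averaged 10.22 in Atf7-/- IVF livers against 9.49 in Atf7-/- natural mating livers (0.73, adjusted p = 0.000574), and 10.25 in WT IVF livers against 9.32 in WT natural mating livers (0.94, adjusted p = 0.000551). The other genes of that list, among them the insulin gene Ins2, which lies next to Igf2 and gave 0.012 for IVF in WT (adjusted p = 0.971), were not called in either genotype. The list's median change was -0.0011 for IVF in Atf7-/- mice and -0.034 for IVF in WT mice.

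Around Igf2r and Airn 8 of 11 listed genes were measured, and by their brightest probe sets 0 were called in any comparison. Slc22a2, an organic cation transporter gene that is imprinted in mouse placenta with Igf2r, gave -0.063 for IVF in WT (adjusted p = 0.733). The probe sets of Wtap, which encodes a subunit of the RNA methyltransferase complex, disagreed, since the dimmer one was called higher with IVF in Atf7-/- mice (0.85, adjusted p = 0.000609) and lower with ATF7 loss in natural mating (-0.78, adjusted p = 0.000704), while the brighter one gave 0.25 and 0.27 there, with adjusted p of 0.149 and 0.116. Around Mest 8 of 9 genes were measured and 0 were called. At the adjusted p alone 2 were higher with ATF7 loss in natural mating, against 13.7% of all probe sets. In the interaction 1 was lower at the adjusted p alone, against 7.25%, and the lowest change was -0.599. Cep41 averaged 5.86 in Atf7-/- IVF, 6.11 in Atf7-/- natural mating, 6.05 in WT IVF and 5.71 in WT natural mating livers. Copg2, a coatomer subunit gene next to Mest, passed the adjusted p alone with IVF in WT (0.35, adjusted p = 0.0394) and with ATF7 loss in natural mating (0.43, adjusted p = 0.0116), and gave -0.12 with IVF in Atf7-/- mice (adjusted p = 0.494).

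Among the IGF ligands, receptors and binding proteins, which set how much IGF reaches cells, 21 of 22 genes were measured. With IVF in WT mice 1 was called higher and 2 lower, beside 4.52% of all probe sets called in either direction, and 5 were higher and 2 lower at the adjusted p alone, with a list median of 0.051 against -0.036 over all probe sets. Igfbp2, a binding protein made by hepatocytes, had log2 values of 10.32, 10.49 and 10.42 in WT IVF livers and 11.47, 11.48 and 11.01 in WT natural mating livers. The groups did not overlap, the change was -0.91 (SE 0.16, adjusted p = 0.00777 by limma), and the call held without each of the 6 arrays. Irs2, the adaptor of the insulin and IGF1 receptors, was also lower (-0.66, adjusted p = 0.0389), a call that ended without WT IVF replicate 1 or 3 or WT natural mating replicate 1 or 2 (adjusted p of 0.0785 to 0.125).

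Igfbp5, a matrix-bound binding protein, was called higher after IVF in both genotypes, as Igf2 was at the adjusted p alone. Its log2 values were 7.40, 6.88 and 7.26 in Atf7-/- IVF livers and 6.3002, 6.42 and 6.28 in Atf7-/- natural mating livers, a rise of 0.85 (SE 0.21, adjusted p = 0.021 by limma). They were 6.89, 7.39 and 7.21 in WT IVF livers and 6.16, 5.81 and 6.65 in WT natural mating livers, a rise of 0.96 (SE 0.21, adjusted p = 0.0193). Neither pair of groups overlapped. The call in Atf7-/- mice ended without Atf7-/- IVF replicate 1 or 3 or Atf7-/- natural mating replicate 1 or 3 (adjusted p of 0.065 to 0.0758), and that in WT mice ended without WT IVF replicate 2 or 3 or WT natural mating replicate 1 or 2 (adjusted p of 0.0522 to 0.0698).

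Igf1, the growth hormone dependent ligand of postnatal liver, passed the adjusted p alone with IVF in WT (0.37, adjusted p = 0.0494), as did the growth hormone receptor gene Ghr (0.51, adjusted p = 0.0112). In Atf7-/- mice Igf1 gave 0.21 (adjusted p = 0.23) and Ghr 0.38 (adjusted p = 0.0228) with IVF. The signalling receptors were not called, with Igf1r at 0.21 in Atf7-/- mice (adjusted p = 0.478) and 0.075 in WT mice (adjusted p = 0.815). Igfbp1, a binding protein that falls with insulin, gave -1.55 with IVF in WT mice with overlapping arrays (adjusted p = 0.0515).

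Igfbp7, a binding protein of vessel walls and matrix, was called, as Mest was, with ATF7 loss in natural mating and in the interaction. Its log2 values were 11.63, 11.68 and 11.57 in Atf7-/- IVF livers and 11.84, 11.95 and 12.06 in Atf7-/- natural mating livers. They were 11.59, 11.79 and 11.56 in WT IVF livers and 11.26, 11.28 and 10.71 in WT natural mating livers. The WT natural mating arrays were the lowest and the Atf7-/- natural mating arrays the highest. The change with ATF7 loss in natural mating was 0.87 (adjusted p = 0.00269 by limma), and the interaction was -0.89 (adjusted p = 0.0259), a call that ended without Atf7-/- IVF replicate 3, Atf7-/- natural mating replicate 2 or 3 or WT IVF replicate 2 (adjusted p of 0.0551 to 0.0657).

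**Figure D4:**
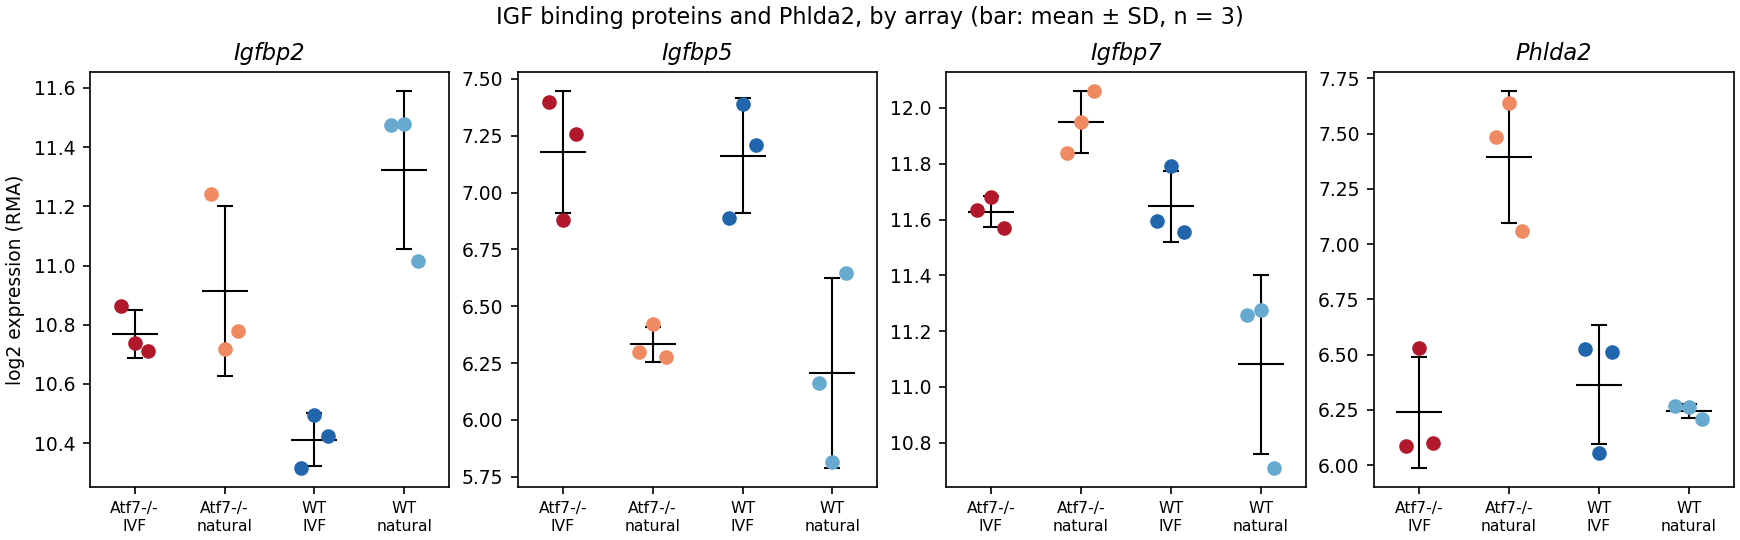
Log2 expression (RMA) of the IGF binding protein genes Igfbp2, Igfbp5 and Igfbp7 and of the imprinted gene Phlda2 in each array, by group, with the group mean and SD (n = 3); vertical scales differ between genes and do not start at 0. Igfbp2 is lowest in WT IVF (10.32 to 10.49), Igfbp5 is higher in both IVF groups, and Phlda2 is high in Atf7-/- natural mating livers alone (7.06 to 7.64).

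IGF2R also carries newly made lysosomal enzymes by their mannose 6-phosphate tag, and 19 of 22 genes of that route were measured. IVF in Atf7-/- mice called 4 of the 19 lower and 0 higher, beside 6.78% of all probe sets called in either direction, with a list median of -0.24 against 0.0057 over all probe sets. These were Arsa (-1.31, adjusted p = 0.00243), Gaa (-0.99, adjusted p = 0.00142) and Ctsa (-0.83, adjusted p = 0.00438), which encode lysosomal hydrolases, and Nagpa (-1.01, adjusted p = 0.000385), whose enzyme uncovers the tag. IVF in WT mice called Arsa lower (-0.81, adjusted p = 0.0367) and the sorting receptor gene Sort1 higher (0.70, adjusted p = 0.00888), with a median of -0.20. The Arsa call in WT held only without WT natural mating replicate 3, with adjusted p of 0.0741 to 0.117 without any other of the 6 arrays, and the Sort1 call ended without WT IVF replicate 3, where the change was 0.58.

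Nagpa had log2 values of 7.75, 7.42 and 7.51 in Atf7-/- IVF livers, 8.73, 8.58 and 8.40 in Atf7-/- natural mating livers, 7.62, 7.49 and 7.47 in WT IVF livers and 7.77, 7.90 and 7.78 in WT natural mating livers. The Atf7-/- natural mating arrays stood above all others, as they did for Igf2r. Loss of ATF7 in natural mating called Nagpa (0.75, adjusted p = 0.00143 by limma) and Sort1 (0.78, adjusted p = 0.00218) higher, and the interaction called both lower, Nagpa by -0.72 (adjusted p = 0.0208) and Sort1 by -0.70 (adjusted p = 0.0369). Leaving out single arrays ended the interaction call of Nagpa in 3 of 12 repeats (without Atf7-/- IVF replicate 3, Atf7-/- natural mating replicate 1 or WT IVF replicate 1) and that of Sort1 in 10 of 12, all except those without WT IVF replicate 2 or WT natural mating replicate 2.

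Among 15 of 16 measured imprinted genes that act in growth beside the members, 3 were called higher with loss of ATF7 in natural mating, as Mest was, beside 7.5% of all probe sets called in either direction. Peg10, a retrotransposon-derived gene needed for the placenta, averaged 7.65 in Atf7-/- natural mating livers against 6.15 in WT natural mating livers (1.50, adjusted p = 0.000276 by limma). Phlda2, a maternally expressed gene that restrains placental growth, averaged 7.39 in Atf7-/- natural mating livers against 6.25 in WT natural mating livers (1.15, adjusted p = 0.00193). Sgce, the neighbour of Peg10, changed by 0.81 (adjusted p = 0.0334), a call held only without WT natural mating replicate 1.

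With IVF in Atf7-/- mice Peg10 (-1.12, adjusted p = 0.00164 by limma) and Phlda2 (-1.15, adjusted p = 0.00218) were called lower and Ndn, a paternally expressed gene that restrains cell growth, was called higher (0.94, adjusted p = 0.00221). With IVF in WT mice Ndn was the only call of this list (0.66, adjusted p = 0.0221), which ended without WT IVF replicate 2 or 3 or WT natural mating replicate 1 or 3 (adjusted p of 0.0531 to 0.0784). Peg10 and Phlda2 were not called with IVF in WT mice, with group means of 6.25 and 6.36 in WT IVF livers against 6.15 and 6.25 in WT natural mating livers. List medians were 0.15 for ATF7 loss in natural mating, -0.074 for IVF in Atf7-/- mice and 0.095 for IVF in WT mice.

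Of 8 genes that, like Igf2, are silenced in the liver after birth, 1 was called, Cd24a, a surface protein gene of immature hepatic cells, which was higher with IVF in WT mice (0.84, adjusted p = 0.0228 by limma) and lost the call without WT IVF replicate 1 or 2 or WT natural mating replicate 1 or 2 (adjusted p of 0.0628 to 0.0781). Afp, the classic fetal liver protein, gave -0.28 in Atf7-/- mice (adjusted p = 0.474) and 0.10 in WT mice (adjusted p = 0.805) with IVF, and the list median was -0.068 in Atf7-/- mice and 0.36 in WT mice. The list median was 0.22 with ATF7 loss in natural mating and -0.36 in the interaction. Gpc3 of this list, called in no comparison, averaged 8.06 in Atf7-/- IVF and 8.85 in Atf7-/- natural mating livers. It averaged 8.46 in WT IVF and 7.78 in WT natural mating livers, with an SD of 0.66 and 0.83. Of the postnatal repressors of Afp, Zhx2 gave -0.37 in Atf7-/- mice (adjusted p = 0.0748) and -0.28 in WT mice (adjusted p = 0.186). Of 9 genes for imprint maintenance and repression and 7 of 9 measured Igf2 mRNA binding and growth regulators, 0 were called. At the adjusted p alone, 1 of the 9 was lower with ATF7 loss in natural mating, against 13.7% of all probe sets. In the interaction 1 was higher, against 7.25%. Zfp445 of this list averaged 8.92 in Atf7-/- IVF, 8.67 in Atf7-/- natural mating, 8.82 in WT IVF and 9.09 in WT natural mating livers. Ctcf, which encodes the insulator protein of the Igf2 and H19 cluster, passed the adjusted p alone with IVF in Atf7-/- (0.42, adjusted p = 0.0102) and WT mice (0.37, adjusted p = 0.0297).

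Ordered by group mean, Mest ran from Atf7-/- natural mating through Atf7-/- IVF and WT IVF down to WT natural mating, and only Atf7-/- IVF and WT IVF overlapped as neighbours. Igf2 ran from Atf7-/- IVF and WT IVF, which overlapped, to Atf7-/- natural mating and WT natural mating, which overlapped too, with a gap between the pairs. Igf2r had 1 gap, below Atf7-/- natural mating. In Airn all neighbours overlapped, from WT natural mating through Atf7-/- natural mating and Atf7-/- IVF to WT IVF.

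Within groups, the 4 members were compared in 6 pairs through their deviations from the group means over the 12 arrays. Igf2r and Airn gave the largest Pearson's r of 0.63 (p = 0.118), with Spearman's rho of 0.59 (p = 0.123), in exact two-sided tests over 1296 permutations within groups, and r was 0.49 without the 2 arrays farthest from the median. The largest rho was that of Igf2 and Igf2r, at 0.61 (p = 0.0779 in the same exact test, 0.245 after adjustment). After Benjamini-Hochberg adjustment over the 6 pairs, p for Pearson's r ran from 0.253 to 0.596, so no pair passed the exact test. The r of the pairs ranged from 0.16, for Igf2 and Mest, to 0.63.

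The genes whose values over the 12 arrays were most like each member were taken from 19133 probe sets with 1 symbol, with Pearson's r as the measure and with the group differences left in. For Mest they were Sparc (0.95), Cdh2 (0.95) and Ssbp2 (0.95), and for Igf2 they were Sptssa (0.95), P2ry14 (0.94) and Calm2 (0.92). For Igf2r they were Add1 (0.96), Got2 (0.95) and Anpep (0.94), and for Airn they were Apex2 (0.92), Csmd3 (0.89) and Tbc1d10c (0.88). These are the highest of many coefficients over arrays that share 4 groups, and they are given as a description.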

How the data were processed

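Expression was read from biotin-labelled liver RNA on 12 arrays (Affymetrix Mouse Gene 1.0 ST). The deposited values are log2 expression, 1 per probe set, which the authors made by RMA normalization with the affy package, and they were analysed without further change. No source used here gives the RMA and affy versions, filters, the probe positions or the genome build behind the values. The platform annotation gives 21640 of the 34760 probe sets 1 symbol, 1321 more than 1 symbol and 11799 no symbol, and genes were named from the first kind alone. RefSeq's GRCm38.p6 table held 21553 of these and changed 0 symbols. Unmapped value columns numbered 0.

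The 4 group means were fitted with limma 3.58.1 (lmFit and eBayes, 8 residual degrees of freedom) in R 4.3.3, with the article's thresholds. The step was tested on simulated data. Other settings tried were a fit restricted to the groups compared, a replicate block, median centring, further quantile normalization, removal of dim probe sets, array weights, robust variances with an intensity trend, and each array left out. The labels do not pair samples that share a replicate number.

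The brightest probe set stood for a gene with several. Named were all members, up to 4 called genes per list, list genes needed as receptors or regulators, and the 3 genes most like each member. Members and lists were chosen with earlier results of these data known. The number of arrays limits precision. Figures used matplotlib 3.10.9, and exact tests numpy 2.4.6, in Python 3.11.15.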

Additional observations from a re-analysis of the deposited data

Results flagged for a closer look

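Among the members and the genes of the 10 gene lists, and leaving aside the cell type markers, 6 genes were called by their brightest probe set in the interaction term of limma, that is, their IVF effect differed between genotypes. The term called 6.18% of all probe sets. The calls were 1 of 4 members and 1 of 21 measured genes of the IGF list. They were 2 of 19 in the lysosomal sorting list and 2 of 15 in the imprinted growth list. The other lists gave 0 calls in 9, 8, 8, 2, 7, 9 and 8 measured genes. These counts were not tested against the share of all probe sets. The term is given as the IVF effect in Atf7-/- minus that in WT. The 6 genes were Mest (-1.42, adjusted p = 0.0307), Igfbp7 (-0.89, adjusted p = 0.0259), Sort1 (-0.70, adjusted p = 0.0369), Nagpa (-0.72, adjusted p = 0.0208), Peg10 (-1.22, adjusted p = 0.0116) and Phlda2 (-1.27, adjusted p = 0.0139). In all 6 the term was below 0, and all 6 were called higher with ATF7 loss in natural mating, a comparison that shares 6 of the 12 arrays with the interaction. Leaving out single arrays ended no interaction call of Peg10 or Phlda2.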

How the results depend on the processing

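For members, loss of ATF7 in natural mating called Mest under every alternative run. Fitting only the groups compared called 0 members for IVF in WT (Airn -0.74, adjusted p = 0.0863; Mest 0.96, adjusted p = 0.0674; Igf2 0.59, adjusted p = 0.0742) and 0 probe sets for ATF7 loss in IVF. With a replicate block IVF in WT also called 0 members, with Airn at -0.74 (adjusted p = 0.0567) and Mest at 0.96 (adjusted p = 0.0525). Igf2 was 0.59 there (adjusted p = 0.0124), under the fold threshold, and 0.68 with IVF in Atf7-/- mice (adjusted p = 0.00361). Of 18 same-numbered pairs of arrays, 3 had deviations correlated above 0.1. Their r ran from -0.124 to 0.239, against -0.2 to 0.189 in other pairs. These correlations cannot decide whether mice with the same number share a batch, and the labels do not say. Median centring gave Airn -0.67 (adjusted p = 0.0548) and called Igf2 at 0.66 (adjusted p = 0.0171) for IVF in WT. Further quantile normalization called 3 members there, with Igf2 at 0.64 (adjusted p = 0.023), and turned Igf2r to -0.041, as array weights did (-0.090). Removing dim probe sets left 1 call for ATF7 loss in IVF. The cause of these changes was not tested.

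Leaving out single arrays gave 998 to 1795 calls for IVF in WT (998 without WT IVF replicate 3) and 2 to 6 for ATF7 loss in IVF. Members called ranged from 0 to 1 for IVF in WT, IVF in Atf7-/- and the interaction. For IVF in WT, Airn ranged from -0.88 to -0.58, Mest from 0.70 to 1.10, Igf2 from 0.48 to 0.70 and Igf2r from -0.12 to 0.098. For IVF in Atf7-/-, Igf2 ranged from 0.57 to 0.82 and Mir335 from -0.080 to 0.063. For ATF7 loss in natural mating, Igf2 ranged from -0.027 to 0.14 and Mir335 from -0.17 to 0.0097. For ATF7 loss in IVF, Airn ranged from -0.0054 to 0.26, Igf2r from -0.0055 to 0.19 and Mest from -0.098 to 0.30. The interaction ranged from -1.55 to -1.15 for Mest and from -0.023 to 0.23 for Igf2. The within-group r of Igf2 and Mest ranged from -0.054 to 0.31. Averaging probe sets of a member was not run, since each has 1.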
